A study of Mus musculus with 9 samples.

Results

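The T-box genes are a family of transcription factors, and 8 of them, Tbx2, Tbx3, Tbx4, Tbx5, Tbx6, Tbx15, Tbx18 and Tbx20, were followed in the RNA of sorted fetal mouse testis cells. They were chosen by symbol, and all 8 were found among the 38560 genes of the count table. The 9 libraries come from 3 populations named Leydig, Interstitial and Sertoli in the labels, with 3 libraries each. All carried the Sf1-eGFP reporter, in which regulatory sequence of the gene for steroidogenic factor 1 drives a green fluorescent protein, and all were taken at 12.5 days post coitum from gonads with testis cords. Sorting used a CD31 stain to take out germ cells and endothelium; the gates are not stated. Each library pools RNA from about 10 sorting experiments, each on 4 to 10 litters. The protocol describes 2 samples and their mixture, and replicate C was taken, by elimination, as the mixture. Tests therefore used replicates A and B, and replicate C is shown beside them.

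T-box proteins bind DNA through a conserved domain that recognises a short element, and they act as activators or repressors of genes that set the identity of mesoderm, heart, limb and lung. Tbx2 and Tbx3 are closely related repressors, each a neighbour of another family member in the genome: Tbx2 lies beside Tbx4, and Tbx3 beside Tbx5. Tbx4 and Tbx5 are known for hindlimb, forelimb and lung growth, Tbx6 for somite mesoderm, Tbx15 for skeletal and dermal mesenchyme, Tbx18 for the epicardium, the sinus node and the mesenchyme around the ureter, and Tbx20 for the heart.

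Sertoli markers were highest in the Sertoli libraries, while fetal Leydig markers did not set the Leydig libraries apart from Sertoli. Summed over 10 Sertoli markers, levels were 1070 to 1110 CPM in Leydig, 176 to 204 in Interstitial and 3600 to 3790 in Sertoli (CPM, read counts scaled to library size with the trimmed mean of M-values, TMM; lowest to highest of 3 libraries). Summed over 8 fetal Leydig markers they were 306 to 535 CPM in Leydig, 77.8 to 108 in Interstitial and 293 to 339 in Sertoli, ranges that overlapped between Leydig and Sertoli, and 2 of the 8 were called higher in Leydig than in Sertoli. Markers of cells outside the named types were highest in Interstitial for red cells, at 50.7 to 168 CPM in Leydig, 6320 to 7070 in Interstitial and 62.7 to 146 in Sertoli over 6 genes. The libraries held 33123254 to 39244060 reads in genes, and a count of 0 allows up to 3 reads, or 0.0764 to 0.0906 CPM by library, a limit for counting error only. In bulk RNA, fewer cells of a type and less RNA per cell cannot be told apart.

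Tbx2 made up most of the summed transcript level of the 8 listed genes. Per kilobase of exon, on the RPKM scale (the same CPM divided by exon length), Tbx2 averaged 57 ± 10.7 RPKM in Leydig, 35.5 ± 1.01 in Interstitial and 25.8 ± 0.343 in Sertoli (SD, n = 2 each). It was 94.4 to 96.3% of the summed RPKM of the 8 genes in Leydig, 78.2 to 80.1% in Interstitial and 93.7 to 95% in Sertoli. Among genes with reads, 97.5% had a lower RPKM than Tbx2 in Leydig, 96% in Interstitial and 92.9% in Sertoli. Mga, a T-box gene outside the 8 and not in these sums, averaged 17.5 ± 0.74 RPKM in Leydig, 17.7 ± 0.745 in Interstitial and 19 ± 0.369 in Sertoli. The makeup of the 8 genes thus differed most in Interstitial, where Tbx2 held the smallest share of their sum. Tbx3 and Tbx4 supplied most of the remainder there, at 6.81 to 9.8% and 7.93 to 10.6% of the sum. In Leydig Tbx3 held 1.63 to 1.81% and Tbx4 0.541 to 2.26%, and in Sertoli Tbx3 held 1.32 to 1.58% and Tbx4 1.22 to 2.31%. The other 5 genes were each under 1 RPKM on average in every population.

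**Figure D1:**
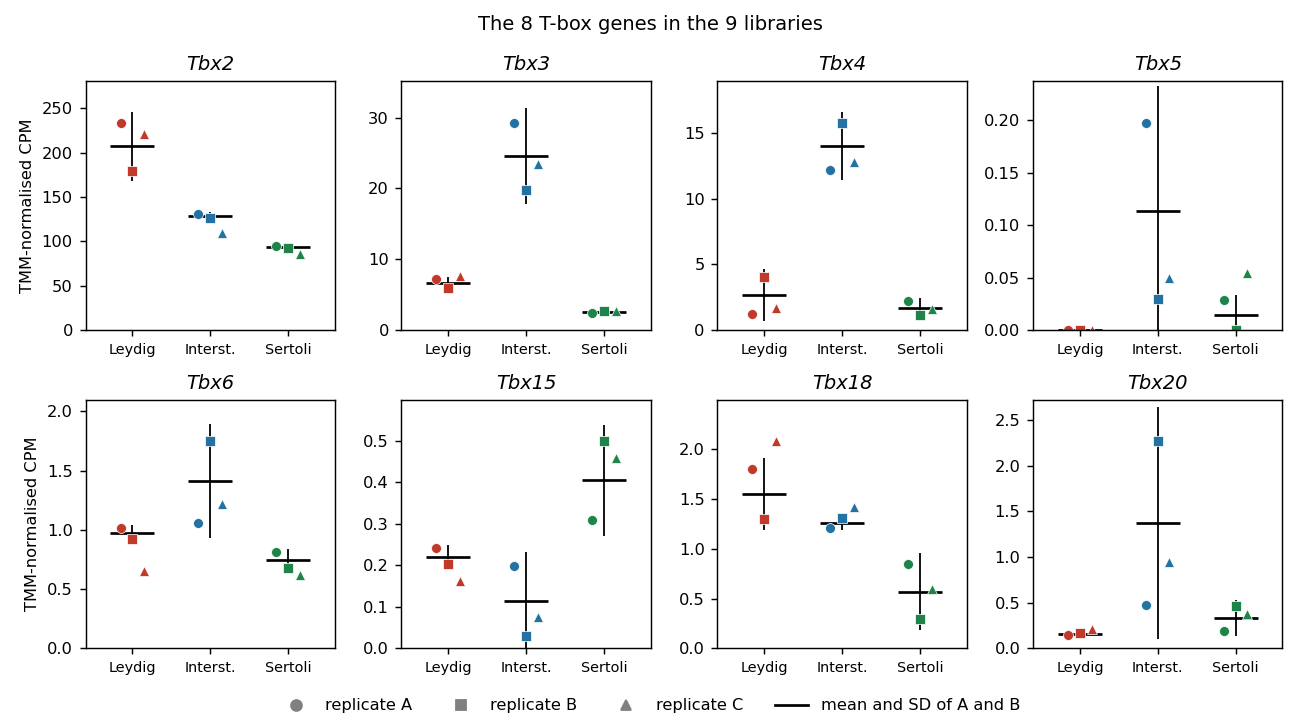
TMM-normalised CPM of each of the 8 T-box genes (vertical axes, linear and starting at 0) in Leydig, Interstitial and Sertoli; symbols are single libraries, black lines the mean and SD of replicates A and B. Tbx2 stands highest in Leydig, Tbx3 and Tbx4 far highest in Interstitial, and the Interstitial points of Tbx20 spread from 0.47 to 2.27 CPM.

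The genes differed in where their mean was highest: Tbx2 and Tbx18 in Leydig, Tbx3, Tbx4, Tbx6 and Tbx20 in Interstitial, and Tbx15 in Sertoli. Not every top rank was called against the next population: Tbx18 was not called over Interstitial, and Tbx6 and Tbx15 were not called over Leydig. The filter on low counts left 7 of the 8 genes for testing, Tbx5 being too low. In Leydig against Sertoli 3 of the 7 were called, all higher in Leydig (Tbx2, Tbx3 and Tbx18), beside 37.5% of all 18048 genes tested (16.9% higher in Leydig and 20.6% higher in Sertoli). In Leydig against Interstitial 4 were called, beside 45.1% of all genes (22% higher in Leydig and 23.2% higher in Interstitial): Tbx2 was higher in Leydig, and Tbx3, Tbx4 and Tbx20 were lower. In Interstitial against Sertoli 6 were called, beside 61.8% of all genes (32.7% higher in Interstitial and 29.1% higher in Sertoli): Tbx2, Tbx3, Tbx4, Tbx6 and Tbx20 were higher in Interstitial and Tbx15 was lower. The shares called were 42.9, 57.1 and 85.7% of the 7 genes, and with 7 genes nothing is read from them about the family as a whole. They include Tbx15, which reached the filter's minimum only in Sertoli, and Tbx20, which reached it mostly in Interstitial, the populations where each was highest. The median log2 fold change of the 7 genes was 0.63, -0.5 and 1.08 in these comparisons, in the same order, against -0.01, 0.01 and 0.04 for all genes tested. The comparisons share libraries and are not independent. Of all calls, 45.1% were towards Leydig against Sertoli and 52.9% towards Interstitial against Sertoli, and with scaling by library size alone these were 58.8% and 65.2%. The count in Interstitial against Sertoli was the least stable, at 2 without Sertoli replicate B and at 3 without Sertoli replicate A or without Interstitial replicate B.

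**Figure D2:**
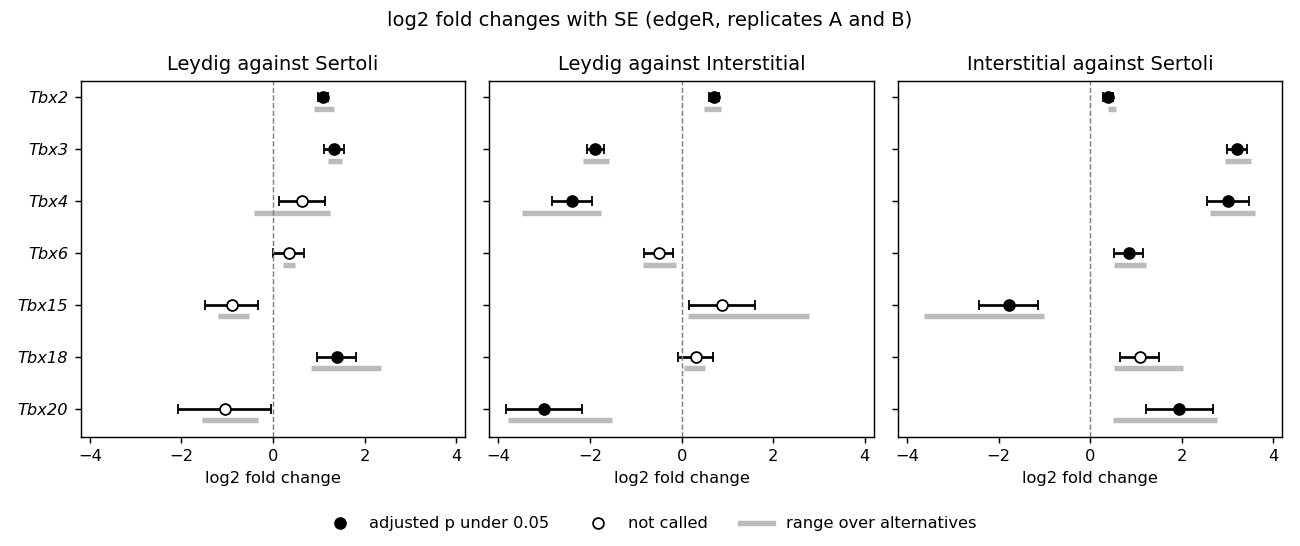
log2 fold change (horizontal axes) with its SE for the 7 tested T-box genes in each comparison, the first-named population over the second; filled circles had an edgeR adjusted p under 0.05 and grey bars span the values over the alternative settings. Tbx3 and Tbx4 lie far to the right in Interstitial against Sertoli, at 3.21 and 3.02.

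Tbx2 (ENSMUSG00000000093, chromosome 11, 85832551 to 85841948, GRCm38, plus strand) was highest in Leydig, then Interstitial, then Sertoli. It had 234, 179 and 221 CPM in Leydig libraries A, B and C, 131, 126 and 109 CPM in Interstitial and 94.6, 92.8 and 85.3 CPM in Sertoli. The ranges of the 3 populations did not overlap, and the widest spread was within Leydig. Tbx2 was 2.14-fold higher in Leydig than in Sertoli (log2 1.1 ± 0.11, SE; edgeR adjusted p 8.42e-05) and 1.62-fold higher than in Interstitial (0.7 ± 0.11, edgeR adjusted p 0.00116). Between Interstitial and Sertoli the difference was smaller (0.4 ± 0.11, edgeR adjusted p 0.0115), and that call was lost without Sertoli replicate A (edgeR adjusted p 0.0579) or B (0.0736). Of the 11 marker lists, the ratio of Tbx2 to the summed markers varied least for smooth muscle and pericytes (1.58-fold over the 9 libraries) and next for interstitial progenitors (1.86-fold), while Tbx2 itself spanned 2.75-fold. These lists were picked after the values were seen. The 8 smooth muscle and pericyte markers summed to 286 to 313 CPM in Leydig, 231 to 239 in Interstitial and 168 to 197 in Sertoli, and 6 were called higher in Leydig than in Sertoli. Not all followed Tbx2: 3 were called higher and 1 lower in Leydig than in Interstitial, and 5 higher and 2 lower in Interstitial than in Sertoli. The 9 interstitial progenitor markers, genes of the stroma, had a summed level of 1730 to 1950 CPM in Leydig, 1330 to 1420 in Interstitial and 651 to 699 in Sertoli. Of these 9, 8 were called higher in Leydig than in Sertoli, 5 higher and 1 lower in Leydig than in Interstitial, and 8 higher and 1 lower in Interstitial than in Sertoli. No marker of either list was at 0 in any population. Within Leydig, the sum of the 8 fetal Leydig markers was higher in replicate A than in B, as Tbx2 was. It was 535, 306 and 469 CPM in replicates A, B and C, and C, taken as the mixture, adds no separate agreement. The sums for Sertoli, interstitial progenitor, mesothelium, smooth muscle, and mesonephric and ureteric mesenchyme markers were also higher in A than in B. Those for endothelium, macrophage, red cell, germ cell and mesonephric tubule markers were lower. The ratio of Tbx2 to the fetal Leydig sum spanned 6.09-fold over the 9 libraries. The part of these lists in the result was not tested. By the root mean square difference of centred log2 profiles over the 9 libraries, among 12202 genes of at least 5 CPM, the genes most like Tbx2 were Adamts7 (0.062), a secreted metalloprotease gene, Pkdcc (0.088), a secreted kinase gene, and Loxl2 (0.095), a gene of collagen crosslinking.

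Tbx3 (ENSMUSG00000018604, chromosome 5, 119670669 to 119684724, plus strand) had another order, with Interstitial first. Its level was 7.22, 5.99 and 7.63 CPM in Leydig libraries A, B and C, 29.3, 19.8 and 23.4 CPM in Interstitial and 2.44, 2.67 and 2.61 CPM in Sertoli. No library of one population reached the range of another. Tbx3 was 9.25-fold higher in Interstitial than in Sertoli (log2 3.21 ± 0.21, edgeR adjusted p 3.09e-06). It was lower in Leydig than in Interstitial (-1.88 ± 0.19, edgeR adjusted p 0.000135) and higher in Leydig than in Sertoli (1.33 ± 0.22, edgeR adjusted p 0.00165). These 3 calls held under each of the 16 alternative settings. The closely related Tbx2 and Tbx3 thus differed in where they peaked, Tbx2 in Leydig and Tbx3 in Interstitial. Several marker lists were high in the same libraries as Tbx3: 7 markers of mesonephric tubule epithelium summed to 50.6 to 56.2 CPM in Leydig, 103 to 121 in Interstitial and 27.9 to 30.6 in Sertoli. For 6 markers of mesonephric and ureteric mesenchyme the sums were 117 to 139 CPM in Leydig, 140 to 167 in Interstitial and 59.4 to 62.5 in Sertoli. For 7 macrophage markers they were 16 to 27.4 CPM in Leydig, 50.1 to 79.8 in Interstitial and 4.78 to 5.52 in Sertoli, with 1 marker at 0 in Sertoli and all 7 called higher in Interstitial than in Sertoli. All markers of the mesonephric lists had reads in every population, and 7 of 7 and 5 of 6 were called higher in Interstitial than in Sertoli. In Leydig against Interstitial 6 of 7 and 4 of 6 were called lower, and Hoxd11 of the mesenchyme list higher (1.26 ± 0.31, edgeR adjusted p 0.011). Single genes held much of the sums: Aldh1a2 averaged 108 CPM in Leydig and 137 in Interstitial, and Emx2 41.6 and 40.3. Of 6 mesothelium markers 5 were also called higher in Interstitial than in Sertoli and 1 lower, and 6 of 6 red cell markers higher. The part of these lists in the Tbx3 result was not tested. The profiles nearest to Tbx3 were Sfrp2 (0.177), a secreted Wnt modulator, Dach1 (0.203), a nuclear factor, and Hoxa7 (0.23), a homeobox gene.

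Each of Tbx2 and Tbx3 has a noncoding neighbour that is read from the opposite strand, and both neighbours were called in the same direction as their partner in Leydig against Sertoli and against Interstitial. Tbx3os1 overlaps the start of Tbx3 by 697 bases, 115 of them exonic in both. It had 22, 19 and 23 reads in Leydig libraries A, B and C, 146, 67 and 112 in Interstitial and 6, 4 and 8 in Sertoli. Tbx3os1 was higher in Interstitial than in Sertoli (4.2 ± 0.45, edgeR adjusted p 6.1e-05), lower in Leydig than in Interstitial (-2.19 ± 0.36, edgeR adjusted p 0.00143) and higher in Leydig than in Sertoli (2.01 ± 0.55, edgeR adjusted p 0.02). Within Interstitial, replicate A was above replicate B for both Tbx3 and Tbx3os1. The transcript 2610027K06Rik lies on the minus strand, and its annotated start is 328 bases before that of Tbx2, without overlap. It had 5.29, 3.17 and 4.57 CPM in Leydig libraries A, B and C, 2.77, 2.42 and 2.81 CPM in Interstitial and 2.27, 2.05 and 1.88 CPM in Sertoli. It was higher in Leydig than in Sertoli (0.92 ± 0.26, edgeR adjusted p 0.0227) and than in Interstitial (0.72 ± 0.25, edgeR adjusted p 0.048), and was not called between Interstitial and Sertoli (0.21 ± 0.27, edgeR adjusted p 0.528). The library kit keeps strand, but no source used here states the strand setting of the counting. Reads of Tbx3 and Tbx3os1 in their shared part may not be told apart.

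**Figure D3:**
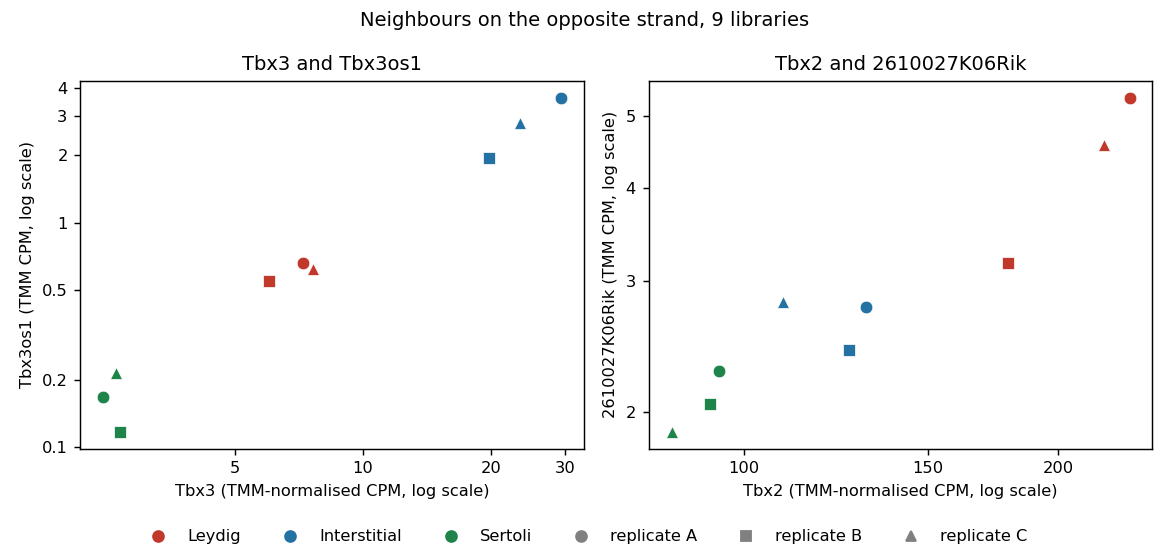
Each panel plots a noncoding neighbour (vertical axis) against Tbx3 or Tbx2 (horizontal axis) in TMM-normalised CPM on log scales, with 1 symbol per library, coloured by population. Tbx3os1 runs from 0.117 CPM in a Sertoli library to 3.61 CPM in the Interstitial library where Tbx3 is highest, at 29.3 CPM.

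Promoter windows of 4 genes are printed because their genes had different orders of the populations: Tbx4 and Tbx20 had their highest means in Interstitial, Tbx18 was called lower in Sertoli than in Leydig, and Tbx22, another family member, was highest in Sertoli. They are from RefSeq on GRCm38.p6, 250 bases before to 50 after an annotated start, 5′ to 3′ on the strand of the gene. The table held windows for 4 of the 8 genes, Tbx4, Tbx6, Tbx18 and Tbx20. The Tbx4 window lies at a start inside the gene as GENCODE annotates it. Capitals mark exact matches on either strand. The T-box element was searched as AGGTGTGA, and its core, which lies within that element, as GGTGTGA. The site of SF1, the factor whose reporter was used for sorting, was searched as CAAGGTCA, and that of the Gata factors as AGATAA. The Sox site was searched as ACAATG, a word bound by Sox9 and its relatives in the testis. The octamer bound by Oct4 in germ cells was searched as ATGCAAAT, and the TATA box as TATAAA.
Tbx4, chr11:85896515-85896814, plus strand: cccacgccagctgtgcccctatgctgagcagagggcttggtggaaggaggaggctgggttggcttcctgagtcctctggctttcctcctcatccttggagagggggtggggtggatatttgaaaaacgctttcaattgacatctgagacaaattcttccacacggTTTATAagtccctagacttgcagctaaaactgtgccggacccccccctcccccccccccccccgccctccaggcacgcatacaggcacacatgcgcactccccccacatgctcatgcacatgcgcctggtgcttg
Tbx20, chr9:24774254-24774553, minus strand: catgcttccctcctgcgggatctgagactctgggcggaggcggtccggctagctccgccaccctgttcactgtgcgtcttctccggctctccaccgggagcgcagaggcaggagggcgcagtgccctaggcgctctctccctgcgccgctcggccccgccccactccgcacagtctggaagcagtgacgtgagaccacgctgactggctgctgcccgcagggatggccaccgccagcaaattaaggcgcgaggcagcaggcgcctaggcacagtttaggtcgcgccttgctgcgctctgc
Tbx18, chr9:87731211-87731510, minus strand: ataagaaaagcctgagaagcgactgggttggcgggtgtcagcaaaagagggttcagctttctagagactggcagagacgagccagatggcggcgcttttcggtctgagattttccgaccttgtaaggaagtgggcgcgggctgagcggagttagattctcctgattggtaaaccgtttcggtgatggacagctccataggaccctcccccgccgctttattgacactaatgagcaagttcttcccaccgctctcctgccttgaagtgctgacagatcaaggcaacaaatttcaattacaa
Tbx22, chrX:107667714-107668013, plus strand: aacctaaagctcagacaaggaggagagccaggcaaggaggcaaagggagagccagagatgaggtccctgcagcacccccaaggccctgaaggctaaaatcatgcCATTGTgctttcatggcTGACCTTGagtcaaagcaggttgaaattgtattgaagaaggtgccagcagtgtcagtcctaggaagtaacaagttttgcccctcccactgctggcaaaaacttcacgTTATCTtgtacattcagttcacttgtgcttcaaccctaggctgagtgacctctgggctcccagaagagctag

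In these letters, Tbx4 had a TATA box match on the reverse strand, and Tbx20 and Tbx18 had none of the 7 motifs. The first of the 3 windows of Tbx22 held a Sox, an SF1 and a GATA match, all on the reverse strand, and its other windows held none of the 7 motifs. Among the windows not printed, that of Tbx6 held a TATA box match and that of Tbx19 a GATA match, both on the forward strand. Those of the remaining T-box genes in the table held none. Of all 32851 windows in the table, 1.28% hold the T-box element, 3.98% its core, 1.56% the SF1 site, 11.2% the GATA site, 12.6% the Sox site, 1.74% the octamer and 13.6% the TATA box. The windows differed in base composition: GC content was 59% for Tbx4, 68.3% for Tbx20, 51.7% for Tbx18 and 50.7% for Tbx22, against a median of 52.7% over all windows. The Tbx20 window held 26 CpG dinucleotides and the Tbx22 window 1. A match is a description of the letters only.

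Tbx4 (ENSMUSG00000000094, chromosome 11, 85886422 to 85916097, plus strand) was high in Interstitial and varied between pools elsewhere. It had 1.23, 4.03 and 1.68 CPM in Leydig libraries A, B and C, 12.2, 15.8 and 12.8 CPM in Interstitial and 2.19, 1.12 and 1.56 CPM in Sertoli. Every Interstitial library was above all others, and the Leydig and Sertoli ranges overlapped. Tbx4 was 8.1-fold higher in Interstitial than in Sertoli (log2 3.02 ± 0.46, edgeR adjusted p 0.000485) and lower in Leydig than in Interstitial (-2.39 ± 0.44, edgeR adjusted p 0.00253). The size of the second difference rested on single Leydig pools, at -3.49 without Leydig replicate B and -1.77 without replicate A, both called. Between Leydig and Sertoli Tbx4 was not called (0.63 ± 0.5, edgeR adjusted p 0.373); it was at -0.42 without Leydig replicate B (edgeR adjusted p 0.474) and at 1.24, and called, without Leydig replicate A (edgeR adjusted p 0.012). Without the filter on low counts it was called at 0.68 (edgeR adjusted p 0.0451).

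Germ cell markers moved with Tbx4 between pools A and B of each population. The sum of 6 such markers, Dazl, Ddx4, Pou5f1, Dppa3, Mael and Dnd1, was 51.5, 217 and 97.6 CPM in Leydig libraries A, B and C, 796, 907 and 902 CPM in Interstitial and 90.7, 59 and 85.2 CPM in Sertoli. In Leydig and in Interstitial, replicate B was above replicate A for both Tbx4 and the markers, and in Sertoli replicate A was above B for both. Replicate C, taken as the mixture, would lie between A and B and adds no separate agreement. In Leydig, Tbx4 in replicate B was 3.27-fold its level in replicate A (95% exact binomial interval of the reads 2.29 to 4.75, counting error only), and in Sertoli 0.509-fold (0.336 to 0.76). Tbx4 spanned 14.2-fold over the 9 libraries, while its level as a percentage of the summed germ cell markers spanned 1.7-fold. That percentage was 2.39, 1.86 and 1.72 in Leydig libraries A, B and C, 1.53, 1.75 and 1.42 in Interstitial and 2.41, 1.89 and 1.83 in Sertoli. Against the other 10 of the 11 marker lists the same ratio spanned 5.36-fold (mesonephric tubule epithelium) or more, a choice of list made after the values were seen. All 6 germ cell markers were called higher in Interstitial than in Sertoli, all 6 were called lower in Leydig than in Interstitial, and none was at 0 in any population, although CD31-positive cells were to be removed. Their part in the Tbx4 result was not tested. The profiles nearest to Tbx4 among 12202 genes were Rhox5 (0.101), a reproductive homeobox gene, Zfp936 (0.113), a zinc finger gene, and Nanog (0.125), a pluripotency gene that germ cells express. Nanog had 3.1, 10.9 and 4.36 CPM in Leydig libraries A, B and C, 28.7, 36.3 and 30.7 CPM in Interstitial and 4.74, 2.96 and 4.66 CPM in Sertoli. Tbx3 did not follow that order within Leydig: its lowest Leydig library was replicate B, where the germ cell markers were highest.

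**Figure D4:**
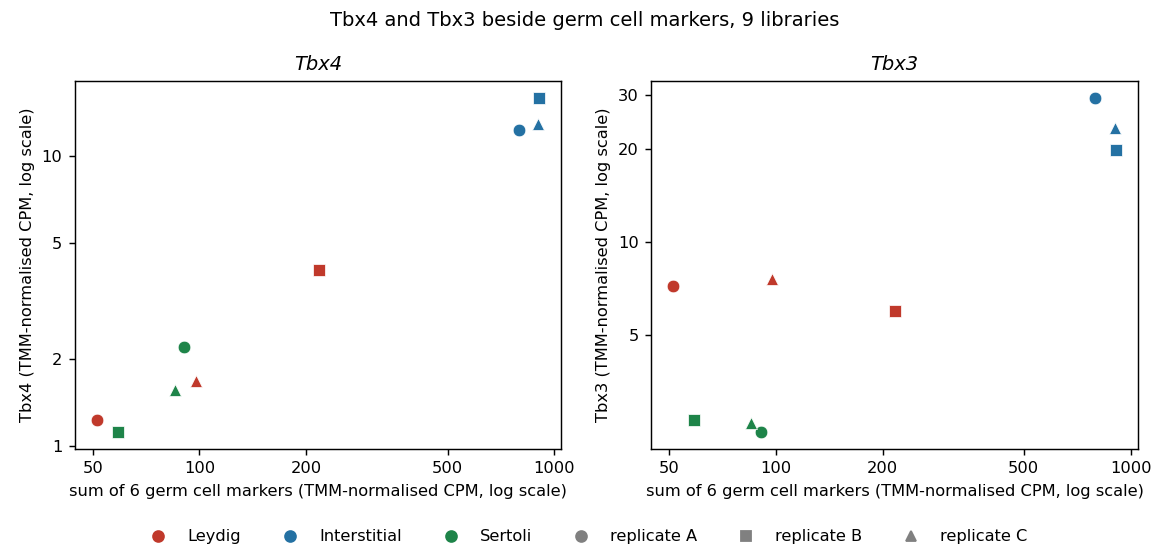
Tbx4 (left) and Tbx3 (right) against the sum of 6 germ cell markers in the 9 libraries, TMM-normalised CPM on log scales, coloured by population. Tbx4 climbs with the marker sum also within Leydig, where replicate B has 4.03 CPM at a sum of 217 CPM, while Tbx3 in Leydig stays between 5.99 and 7.63 CPM.

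Tbx20 (ENSMUSG00000031965, chromosome 9, 24718138 to 24774303, minus strand), a cardiac factor, was low everywhere and differed between the Interstitial libraries. It had 5, 6 and 8 reads in Leydig libraries A, B and C, 19, 78 and 38 in Interstitial and 7, 16 and 14 in Sertoli. These are 0.15 to 0.216 CPM in Leydig, 0.47 to 2.27 CPM in Interstitial and 0.196 to 0.469 CPM in Sertoli, so that Interstitial replicate A was close to the highest Sertoli library. Interstitial replicate B was 4.83-fold replicate A (95% exact binomial interval 2.9 to 8.45, counting error only). Its 4 lanes had 17 to 23 reads each against 3 to 6 in the lanes of replicate A, so the gap lay between libraries and not between lanes. With a single library per pool, a difference of the pools and one of library preparation cannot be told apart. Tbx20 was called lower in Leydig than in Interstitial (-3.01 ± 0.83, edgeR adjusted p 0.0175) and higher in Interstitial than in Sertoli (1.95 ± 0.73, edgeR adjusted p 0.0432). Without Interstitial replicate B both calls were lost, at -1.52 (edgeR adjusted p 0.124) and 0.51 (0.509); without Interstitial replicate A they were -3.78 and 2.76, both called. The Sertoli comparison also lost its call without Sertoli replicate A (1.45, edgeR adjusted p 0.227) or B (2.69, 0.076), and limma voom called neither difference (-2.49 with adjusted p 0.0645, and 1.6 with 0.125). Outside Interstitial, only Sertoli replicate B of the libraries fitted reached the filter's minimum of about 10 reads. Between Leydig and Sertoli Tbx20 was not called (-1.06 ± 1.02, edgeR adjusted p 0.466). The profiles nearest to it, less close than for the other genes, were Slc25a37 (0.496), a mitochondrial iron carrier gene of red cell precursors, and Cubn (0.531) and Ggt1 (0.553), which are known in kidney tubule epithelium. In Interstitial replicates A, B and C, Ggt1 was at 7.45, 10.2 and 7.04 CPM, Cubn at 6.58, 9.46 and 7.24 CPM, and the 7 markers of mesonephric tubule epithelium at 103, 121 and 106 CPM in sum. Replicate B was thus the highest of the Interstitial libraries in each of these, by less than for Tbx20. Of the 7 tubule markers, Lhx1 had the widest spread between replicates A and B, both in Interstitial (27.1 ± 8.13 CPM, SD) and in Leydig (3.59 ± 3.8). The macrophage markers also had their highest Interstitial sum in replicate B, at 50.1, 79.8 and 58.9 CPM in A, B and C. So did the germ cell markers, at 796, 907 and 902 CPM. The red cell markers had their lowest in replicate B, at 7070, 6320 and 6600 CPM. The part of these genes in the level of Tbx20 was not tested.

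Tbx18 (ENSMUSG00000032419, chromosome 9, 87702800 to 87731260, minus strand), the mesenchymal factor, was lower in Sertoli. It had 1.8, 1.3 and 2.08 CPM in Leydig libraries A, B and C, 1.21, 1.31 and 1.42 CPM in Interstitial and 0.842, 0.293 and 0.592 CPM in Sertoli. All Sertoli libraries were below all others, and Leydig and Interstitial overlapped. Tbx18 was called higher in Leydig than in Sertoli (1.39 ± 0.42, edgeR adjusted p 0.0298), at 2.35 without Sertoli replicate A. The call was lost without Leydig replicate A (1.14, edgeR adjusted p 0.105), without Sertoli replicate B (0.83, 0.134) and in the first 2 lanes alone (1.49, 0.135). In Interstitial against Sertoli it was just outside the threshold (1.08 ± 0.42, edgeR adjusted p 0.0532) and passed it in 9 of 16 alternatives, among them with all 9 libraries (1.18, edgeR adjusted p 0.00272) and with the replicate block (1.11, edgeR adjusted p 0.0245). Leydig and Interstitial did not differ by the test (0.31 ± 0.38, edgeR adjusted p 0.533). The locus D030062O11Rik overlaps the start of Tbx18 on the other strand and is not used here. The profiles nearest to Tbx18 were Afap1l1 (0.256), an actin-associated gene, Des (0.276), the muscle filament gene desmin, and Pth1r (0.288), the parathyroid hormone receptor gene. Tbx18 spanned 7.1-fold over the 9 libraries. Its ratio to the summed markers varied least for interstitial progenitors (3.08-fold) and for mesonephric and ureteric mesenchyme (3.18-fold). Mesonephric tubule epithelium (3.52-fold) and endothelium (4.18-fold) came next, against 4.52-fold for smooth muscle and pericytes, the list that holds Des. The choice of these lists was made after the values were seen. The progenitor, mesenchyme and smooth muscle lists had their lowest sums in Sertoli, as given above for Tbx2 and Tbx3. In Leydig against Sertoli 8 of 9, 3 of 6 and 6 of 8 of their markers were called higher in Leydig. So were 3 of 7 tubule and 8 of 8 endothelium markers. None was at 0, and the part of these lists in the Tbx18 level was not tested.

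Tbx6, Tbx15 and Tbx5 had low read counts, at most 60, 17 and 8 reads in a library. Tbx6 (ENSMUSG00000030699, chromosome 7, 126781483 to 126785560, plus strand), the somite factor, had 34, 32 and 24 reads in Leydig libraries A, B and C, 43, 60 and 49 in Interstitial and 29, 23 and 23 in Sertoli. Its single call, higher in Interstitial than in Sertoli (0.84 ± 0.32, edgeR adjusted p 0.046), was lost in 9 of 16 alternatives, among them each Sertoli replicate left out in turn (0.98 without A and 0.71 without B), Interstitial replicate B left out (0.52, edgeR adjusted p 0.241), Leydig replicate A left out (0.84, 0.0505) and DESeq2 (0.83, DESeq2 adjusted p 0.156). Tbx6 was not called in Leydig against Sertoli (0.34 ± 0.34, edgeR adjusted p 0.476) or against Interstitial (-0.5 ± 0.31, edgeR adjusted p 0.219), although the second was called with all 9 libraries, the mixtures included (-0.63, edgeR adjusted p 0.039). The profiles nearest to Tbx6 were Crip1 (0.169), a small LIM protein gene, the pseudogene Llph-ps2 (0.183) and Gltp (0.187), a glycolipid transfer protein gene.

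Tbx15 (ENSMUSG00000027868, chromosome 3, 99240381 to 99354259, plus strand) was the 1 gene of the 8 with its highest mean in Sertoli. It had 8, 7 and 6 reads in Leydig libraries A, B and C, 8, 1 and 3 in Interstitial and 11, 17 and 17 in Sertoli. Of the libraries fitted, only those of Sertoli reached the filter's minimum of about 10 reads. Tbx15 was thus tested only through the population where it was highest. All Sertoli libraries were above all others, at 0.309 to 0.499 CPM, against 0.162 to 0.241 CPM in Leydig and 0.0291 to 0.198 CPM in Interstitial. Tbx15 was called lower in Interstitial than in Sertoli (-1.78 ± 0.64, edgeR adjusted p 0.0381), but not without Interstitial replicate B (-1.01, edgeR adjusted p 0.211), nor without Sertoli replicate A (-2.09, 0.0616) or B (-1.41, 0.215), and not by DESeq2 (-1.88, DESeq2 adjusted p 0.138). Without Interstitial replicate A it was at -3.63, and with scaling by library size alone at -1.61 (edgeR adjusted p 0.0573). Between Leydig and Sertoli it was not called (-0.9 ± 0.58, edgeR adjusted p 0.272), except with all 9 libraries (-1.06, edgeR adjusted p 0.0481), nor was it between Leydig and Interstitial (0.88 ± 0.72, edgeR adjusted p 0.352). Tbx5 (ENSMUSG00000018263, chromosome 5, 119832668 to 119885219, plus strand), the forelimb and heart factor beside Tbx3, had 0 reads in each Leydig library, which allows up to 0.0814 to 0.0903 CPM, 8, 1 and 2 reads in Interstitial replicates A, B and C, and 1, 0 and 2 in Sertoli. Tbx5 was too low to test, although its neighbour Tbx3 was 9.25-fold higher in Interstitial than in Sertoli.

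Of 9 other T-box genes, 6 passed the filter, and 3 of those were called in some comparison. Tbx22, a palate factor on the X chromosome, had 13, 23 and 9 reads in Leydig libraries A, B and C, 1, 1 and 4 in Interstitial and 45, 50 and 43 in Sertoli. It was lower in Leydig than in Sertoli (-1.4 ± 0.33, edgeR adjusted p 0.00926) and lower in Interstitial than in Sertoli (edgeR adjusted p 3.21e-05), where the ratio of the reads of replicates A and B was 0.0196 (95% exact binomial interval 0.00234 to 0.0729). Leydig was above Interstitial by a ratio of 19.8 (5.1 to 170, edgeR adjusted p 0.00101). Its order, Sertoli, Leydig, Interstitial, was that of the Sertoli markers. T, the mesoderm factor Brachyury, averaged 0.262 ± 0.2 CPM in Leydig, 1.25 ± 0.124 in Interstitial and 0.212 ± 0.176 in Sertoli (SD, n = 2 each). T was lower in Leydig than in Interstitial (-2.21 ± 0.54, edgeR adjusted p 0.00983) and higher in Interstitial than in Sertoli (2.46 ± 0.55, edgeR adjusted p 0.00428). Eomes, a mesoderm and lymphocyte factor, was called higher in Interstitial than in Sertoli (3.34 ± 0.91, edgeR adjusted p 0.0116), at 32, 16 and 15 reads in Interstitial replicates A, B and C and 0, 4 and 5 in Sertoli. It passed the filter on low counts only through Interstitial, the population where it was highest. Mga, a large repressor subunit with a T-box, was at 268 ± 11.4 CPM in Leydig, 272 ± 11.4 in Interstitial and 291 ± 5.65 in Sertoli and was called in none of the 3 comparisons. Tbx1 and Tbr1 were not called either, and Tbx10, Tbx19 and Tbx21 had at most 3 reads in any library. Of the 6, Tbx22 was the 1 gene called in Leydig against Sertoli, 1 was higher in Leydig than in Interstitial and 1 lower, and 2 were higher in Interstitial than in Sertoli and 1 lower. These are 16.7, 33.3 and 50% of the 6, beside 37.5, 45.1 and 61.8% of all genes. Their median log2 fold changes were 0.04 in Leydig against Sertoli, 0.26 in Leydig against Interstitial and -0.35 in Interstitial against Sertoli.

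Co-repressors and co-factors of T-box proteins were 13 genes in the table, with 9 tested. In Leydig against Sertoli 3 were higher and 3 lower, in Leydig against Interstitial 2 and 3, and in Interstitial against Sertoli 5 and 4. These are 66.7, 55.6 and 100% of the 9, beside 37.5, 45.1 and 61.8% of all genes. The median log2 fold changes of the 9 were 0.32, -0.08 and 0.3 in these comparisons, beside -0.01, 0.01 and 0.04 for all genes. Tle3, a Groucho co-repressor gene, averaged 76.5 ± 2.11 CPM in Leydig, 96.5 ± 2.95 in Interstitial and 30.9 ± 4.77 in Sertoli (SD, n = 2 each). Tle2, another Groucho co-repressor gene, ran the other way, at 59.4 ± 7.11 CPM in Leydig, 26.3 ± 1.51 in Interstitial and 81.7 ± 4.18 in Sertoli. So did Gata4, a gonadal factor that partners T-box proteins in the heart, at 275 ± 12.1 CPM in Leydig, 121 ± 3.99 in Interstitial and 471 ± 21 in Sertoli. Sall4, a zinc finger gene of germ and stem cells, averaged 19 ± 16.6 CPM in Leydig, 121 ± 17.5 in Interstitial and 10.6 ± 3.26 in Sertoli. Its Leydig replicates A, B and C had 7.28, 30.7 and 12 CPM, with B above A as for Tbx4 and the germ cell markers.

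Of 26 genes described as T-box targets in heart, lung, limb or somite, 22 were tested, and no single direction held. In Leydig against Sertoli 9 were higher and 3 lower, in Leydig against Interstitial 4 higher and 9 lower, and in Interstitial against Sertoli 11 higher and 4 lower. The shares called, 54.5, 59.1 and 68.2% of the 22, stand beside 37.5, 45.1 and 61.8% of all genes, and the medians were 0.27, -0.24 and 0.58. Hand2, a mesenchymal factor of limb and heart, averaged 7.16 ± 1.28 CPM in Leydig, 17 ± 0.317 in Interstitial and 0.756 ± 0.28 in Sertoli. Gja1, the connexin 43 gene that Tbx2 and Tbx3 repress in the heart, averaged 152 ± 4.28 CPM in Leydig, 57.2 ± 4.23 in Interstitial and 342 ± 26.4 in Sertoli. It was called lower in Interstitial than in Sertoli (-2.64 ± 0.08, edgeR adjusted p 3.35e-08), higher in Leydig than in Interstitial (1.42 ± 0.08, edgeR adjusted p 4.91e-06) and lower in Leydig than in Sertoli (-1.21 ± 0.08, edgeR adjusted p 6.84e-06). Cdkn2a, a cell cycle inhibitor gene that Tbx2 and Tbx3 repress in cultured cells, averaged 0.306 ± 0.22 CPM in Leydig, 2.96 ± 0.437 in Interstitial and 0.144 ± 0.0451 in Sertoli, so that it was highest in the population where Tbx3 was highest. Fgf10, the growth factor gene that Tbx4 and Tbx5 activate in limb and lung, was higher in Leydig than in Sertoli (2.27 ± 0.22, edgeR adjusted p 6.61e-05), at 8.42 ± 0.681 CPM in Leydig, 6.49 ± 0.158 in Interstitial and 1.7 ± 0.581 in Sertoli.

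The authors' deposited tables hold 3 of the 8 genes. They have 1932 rows for Leydig against Sertoli, 1823 for Leydig against Interstitial and 3512 for Interstitial against Sertoli, beside 18048 genes tested here. Nothing is read from the absence of a gene. In the authors' deposited table for Leydig against Sertoli, Tbx2 stands at a log2 fold change of 1.22 and Tbx3 at 1.43. For Leydig against Interstitial the authors' deposited table gives -1.81 for Tbx3 and -2.73 for Tbx4, and for Interstitial against Sertoli the authors' deposited table gives 3.24 for Tbx3 and 3.11 for Tbx4. Tbx3os1 is in all of the authors' deposited tables, with -2.16 in Leydig against Interstitial.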

How the data were processed

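RNA was rRNA-depleted and made into strand-keeping libraries, per the labels' protocols. The authors deposited raw HTSeq counts for every gene in 4 lanes of each library. Reads were aligned to mm10 with TopHat2 2.0.6 per the submitters' processing notes; annotation release and counting strand: not given in the sources used here. The authors also deposited limma tables of log2 fold changes, average log2 expression, p-values with adjusted p-values, and moderated t and log odds scores, per the file headers. Symbols, coordinates and exon lengths came from GENCODE M21. Lanes were summed. Replicates A and B of the 3 populations (6 libraries, 3 residual degrees of freedom) were fitted with edgeR 4.0.16 in R 4.3.3 (filterByExpr, TMM, glmQLFit and glmQLFTest, no replicate block), which kept 18048 genes; calls used a Benjamini-Hochberg adjusted p under 0.05. SE is the log2 fold change over the square root of F. Displayed CPM use TMM factors over all 9 libraries. The fit was tested on simulated data. P-values measure the spread between pools, not animals. HTSeq lines without a gene were left out: reads outside genes were 32.23 to 38.52% and ambiguous reads 0.62 to 0.77%. Named genes are the 8 members, from each list the called genes with the 4 largest changes per comparison, all overlapping or nearest neighbours, and the 3 nearest profiles per member of at least 1 CPM; Mga, Tbx1, Tbr1, Tbx10, Tbx19 and Tbx21 are named to complete the family. Alternatives were other scalings (RLE, library size), filters, DESeq2 1.42.0, limma voom 3.58.1, all 9 libraries, 2 lanes at a time, a replicate block and leaving out each library. The members and lists were chosen with earlier results of these data known.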

Additional observations from a re-analysis of the deposited data

How the results depend on the processing

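Of the log2 fold changes of the 7 tested T-box genes, recomputed under 16 alternatives per comparison where the gene passed the filter, 281 values kept direction and side of the threshold, 26 lost the call, 13 gained it and 1 changed sign: Tbx4 in Leydig against Sertoli, at -0.42 without Leydig replicate B and 1.24 without Leydig replicate A, the cause of which was not tested. The number of T-box genes called in Interstitial against Sertoli (6) was 3 in the first 2 lanes alone, where fewer reads were counted and 6 of the genes passed the filter, and 2 to 7 with a library left out. In Leydig against Sertoli it stayed at 2 to 3 with a library left out and in Leydig against Interstitial at 3 to 4. The counts over all genes (6762, 8146 and 11155) stayed within 1.5 times of these values under every alternative. Scaling by library size alone moved the median log2 fold change of all genes by 0.103 in Leydig against Sertoli, -0.064 in Leydig against Interstitial and 0.167 in Interstitial against Sertoli, and changed the share of calls towards the first-named population to 58.8% from 45.1%, 40.2% from 48.7% and 65.2% from 52.9%; no call of Tbx2, Tbx3 or Tbx4 changed with it. The replicate letters are not said to mark a shared batch. The A minus B differences correlated across genes at 0.248 between Leydig and Interstitial, 0.018 between Leydig and Sertoli and 0.1 between Interstitial and Sertoli, and with the replicate block 3, 4 and 7 T-box genes were called in the 3 comparisons, the added call being Tbx18 in Interstitial against Sertoli (1.11, edgeR adjusted p 0.0245). Depth limits Tbx5, Tbx15, Tbx6, Tbx18 and Tbx20 most, which had at most 8, 17, 60, 77 and 78 reads in a library.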

Other observations

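Of the protein-coding genes next to Tbx6 and Tbx15, Ypel3 and Wars2 were called between populations and Ppp4c was not. Over all genes tested, 37.5% were called in Leydig against Sertoli, 45.1% in Leydig against Interstitial and 61.8% in Interstitial against Sertoli. Ypel3 ends 969 bases before Tbx6 on the same strand and had 13.7, 12.8 and 13 CPM in Leydig libraries A, B and C, 20.4, 20.7 and 17.3 CPM in Interstitial and 10.1, 9.24 and 9.53 CPM in Sertoli. It was called higher in Interstitial than in Sertoli (1.03 ± 0.1, edgeR adjusted p 3.04e-05), lower in Leydig than in Interstitial (-0.62 ± 0.1, edgeR adjusted p 0.00117) and higher in Leydig than in Sertoli (0.41 ± 0.1, edgeR adjusted p 0.0118). Its order over the populations was that of the Tbx6 means. Ppp4c, a phosphatase gene 306 bases after Tbx6 on the other strand, averaged 83.6 ± 4.24 CPM in Leydig, 92.2 ± 1.46 in Interstitial and 81.1 ± 3.55 in Sertoli (SD, n = 2 each) and was called in none of the comparisons. Wars2, the mitochondrial tryptophan tRNA ligase gene that ends 1195 bases before Tbx15 on the same strand, averaged 17.5 ± 0.822 CPM in Leydig, 13.2 ± 0.565 in Interstitial and 20.5 ± 0.795 in Sertoli. Wars2 was called lower in Interstitial than in Sertoli (-0.69 ± 0.09, edgeR adjusted p 0.000235), and its order over the populations was that of the Tbx15 means. The noncoding Tbx3os2, which lies 371 bases after Tbx3, had 0 reads in each Leydig library, 6, 9 and 5 in Interstitial replicates A, B and C, and 0, 2 and 0 in Sertoli.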
